A study of Mus musculus with 6 samples.

Results

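The natriuretic peptide system of the right atrium (RA) was followed through 9 genes, picked by symbol from the 54093 genes of the expression table. They were the hormone genes Nppa, Nppb and Nppc, the antisense gene Gm13054 beside Nppa, the processing enzymes Corin and Furin, and the receptors Npr1, Npr2 and Npr3. These 9 genes were chosen with earlier results of the same comparison in view, so their differences between groups are given as values with standard errors and without p-values. The libraries came from the RA of wild-type (WT) C57BL/6 mice at postnatal day 21 (P21), 3 after sham operation and 3 with volume overload (VO). According to the methods of the study, pups of either sex had an aortocaval fistula, an opening between the abdominal aorta and the inferior vena cava that raises the blood volume returning to the RA, or a sham operation, at P7. The comparison asks how RA transcripts differ when the chamber has been volume-loaded before weaning. Nothing in the labels states that each library came from a separate animal, so the spread between libraries may be partly technical. The RA samples were whole myocardium, in which muscle, vessel, connective tissue and blood cells are mixed.

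The atrial and B-type natriuretic peptides are hormones that atrial muscle cells store in granules and release when the atrial wall is stretched. They bind receptors on kidney, vessel and heart cells, where cyclic GMP made by the receptor promotes salt and water excretion and relaxes vessels. Nppa encodes atrial natriuretic peptide (ANP), Nppb encodes B-type natriuretic peptide (BNP) and Nppc encodes C-type natriuretic peptide, whereas Corin and Furin are proteases that cut the precursors.

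The natriuretic peptides share a ring closed by a disulfide bond, and the bases coding for it in Nppb and Nppc are shown as the stretch by which members of the family are recognised. Each stretch of 51 bases (17 codons) lies in exon 2 of 3. Capitals mark the 40 bases that are identical in both genes, and the sequences are those of the GENCODE M21 transcripts on build GRCm38, written 5′ to 3′ on the strand of the gene.
Nppb, chr4:147986464-147986514, plus strand: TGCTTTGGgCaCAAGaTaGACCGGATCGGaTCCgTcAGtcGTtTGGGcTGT
Nppc, chr1:86669667-86669717, minus strand: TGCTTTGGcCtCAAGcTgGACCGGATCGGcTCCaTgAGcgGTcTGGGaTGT

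Nppb and Nppa lie in tandem on the plus strand of chromosome 4, with 13516 bases between the end of Nppb and the start of Nppa. The bases before their start sites are shown because both genes had lower means in VO, and because sites for cardiac regulators have long been studied there. A search for GATAA (bound by GATA factors such as Gata4), CATTCC (bound by TEAD factors), TATAAA (the TATA box) and the CArG box (bound by Srf) covered both strands of the 250 bases before each RefSeq start. RefSeq sequences on GRCm38.p6 were held for 8 of the 9 genes. Capitals mark matches to the GATA, TEAD or TATA letters in either orientation.
Nppa, chr4:148000472-148000721, plus strand: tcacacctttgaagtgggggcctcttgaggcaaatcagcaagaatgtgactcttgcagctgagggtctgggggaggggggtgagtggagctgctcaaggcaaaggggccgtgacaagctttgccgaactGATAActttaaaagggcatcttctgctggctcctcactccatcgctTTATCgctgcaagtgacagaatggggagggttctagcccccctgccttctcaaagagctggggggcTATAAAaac
Nppb, chr4:147985793-147985822, plus strand: caGGAATGcagctGATAAatcagaGATAAc
For Nppb only the 30 bases from position -107 to -78 are shown. The gene model of the deposited table begins 112 bases before the RefSeq start and counts them as exon. The bases shown and all Nppb matches given below therefore lie inside that gene model. The Nppa window held 2 matches to GATAA, at -121 to -117 and, on the other strand, at -75 to -71, and a TATAAA at -9 to -4. The Nppb window held 2 matches to GATAA, at -94 to -90 and -83 to -79, a CATTCC on the other strand at -105 to -100, and a TATAAA at -31 to -26. Among all 32851 RefSeq windows of this length, 22.6% held a GATAA, 4.28% held at least 2, 12.6% held a CATTCC, 12.4% held a TATAAA and 1.47% held a CArG box. At least 2 GATAA together with a CATTCC occurred in 0.521% of windows. This combination is the one that the Nppb window holds, so its share is no test of rarity. The Nppa window lacked a CATTCC. No GATAA or CATTCC was found in the windows of Nppc, Npr1, Npr2, Npr3, Corin or Furin, and a TATAAA was found for Nppc and Furin. No window of the 8 genes held the strict CArG form CCWWWWWWGG, where W is A or T. Forms that differ from it by a base were not searched. These are matches of letters, and binding was not measured.

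The deposited values are FPKM, fragment counts divided by transcript length and a library size, and each library held 15963082 to 17237903 fragments assigned to genes. The library size implied by the values differed from that total. It was 1.556e+07 against 16494342 fragments in sham 1, and 1.814e+07 against 16852482 in VO 1. Compared with division by total fragments, this raised the values of sham 1 and lowered those of VO 1. Over 12627 genes whose FPKM averaged 1 or more, limma on log2(FPKM + 0.1) with Benjamini-Hochberg adjustment called 1 gene (0.00792%) at an adjusted p under 0.05. The count test of the study had called far more genes at the same adjusted threshold. In limma, 1020 genes (8.08%) were lower in VO and 491 (3.89%) were higher at an unadjusted p under 0.05. Scaling each library to the same FPKM sum took the median log2 difference of all genes from -0.01 to 0.13 and turned this split to 489 lower and 1080 higher. Libraries also differed in other respects that bear on the RA samples. Xist, expressed from the inactive X chromosome, was at 28.2 FPKM or more in sham 1, sham 3, VO 1 and VO 2, and the Y-linked Ddx3y was at 27.3 in sham 2 and 28.3 in VO 3. VO 1 had the lowest mean correlation with the other libraries, at 0.923 against 0.935 to 0.954.

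Of the 9 genes, 8 passed the filter and Nppc did not. Of those 8, 1 (Nppb) was called at an adjusted p under 0.05 against 0.00792% of all tested genes, and 2 of 8 had an unadjusted p under 0.05 on the lower side against 8.08%, but the choice of genes had used this comparison and nothing is read from these counts. In 5 of the 8 the log2 difference was below 0 and in 3 it was above, with a median of -0.27 beside -0.01 over all tested genes. Groups did not overlap, with VO lower, for 2 of the 8, namely Nppb and Gm13054, while 12.9% of all tested genes had such groups.

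Nppa was the most abundant member. Its FPKM was 5513, 3152 and 3051 in sham 1, 2 and 3, and 1026, 3224 and 1996 in VO 1, 2 and 3. Sham 1 was far above the other sham libraries, and VO 2 lay above sham 2 and sham 3, so the groups overlapped. Nppa ranked 10, 10 and 11 among all genes of the sham libraries, and 26, 11 and 15 in VO 1, 2 and 3. It took from 0.0956% of the fragments in VO 1 to 0.450% in sham 1. Nppa averaged 3906 ± 1393 in sham and 2082 ± 1102 in VO (SD, n = 3 each), a sham mean 1.88 times the VO mean. On the log2 scale VO minus sham was -1.002 ± 0.45 (SE). Without VO 1 this was -0.57, and without VO 2 it was -1.39, so these 2 libraries set much of its size. Between the lowest and the highest library Nppa varied 3.14-fold within VO and 1.81-fold within sham.

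Nppb gave a tighter picture. It stood at 575, 528 and 596 FPKM in sham 1, 2 and 3, and at 138, 126 and 171 in VO 1, 2 and 3. Every VO library was below every sham library, and the spread within a group was 1.13-fold in sham and 1.35-fold in VO. The sham libraries averaged 566 ± 34.9 and the VO libraries 145 ± 23.2 (SD, n = 3 each), a ratio of 3.90, and the log2 difference was -1.97 ± 0.15 (SE). With 1 library left out at a time it ran from -2.10 without VO 3 to -1.88 without VO 2. In those 6 fits no gene was called at an adjusted p under 0.05, Nppb included. Nppb was chosen with this comparison in view, so nothing is read from its call with all libraries or from the lack of a call here. In bulk RNA, fewer atrial muscle cells and less RNA per cell cannot be told apart, for Nppb or for any gene below.

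The 2 hormone genes did not move in step. Nppa exceeded Nppb in FPKM 9.59, 5.97 and 5.12 times in sham 1, 2 and 3, and 7.44, 25.5 and 11.7 times in VO 1, 2 and 3. VO 2, with Nppa at the sham level and the lowest Nppb of all, gave the highest ratio. Over the 6 libraries the log2 values of Nppa and Nppb had a Pearson r of 0.65, given as a description of libraries that differ in group.

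**Figure D1:**
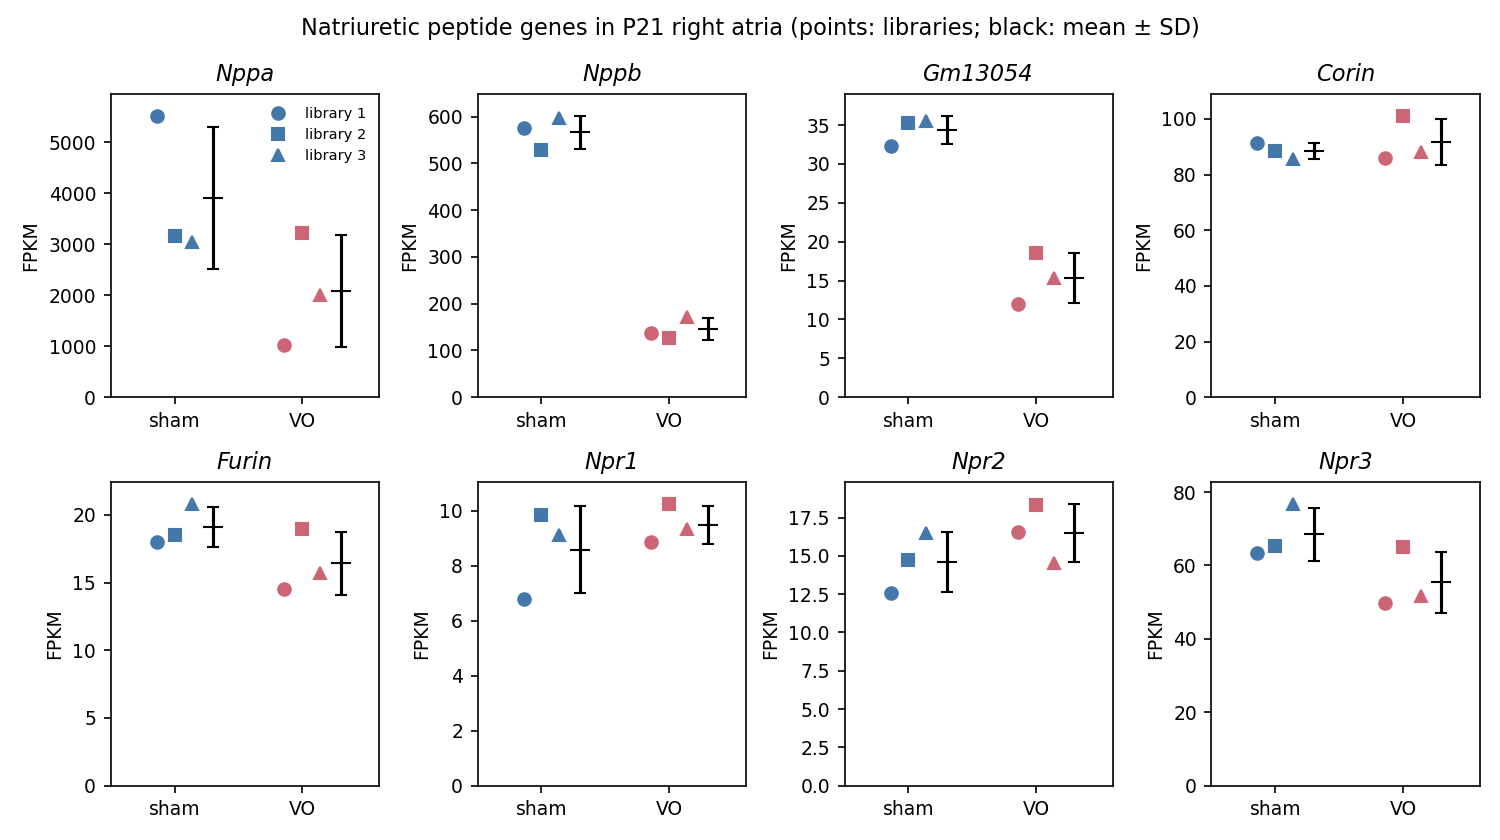
FPKM of 8 genes (y axis, linear from 0, a scale for each gene) in 3 sham (blue) and 3 VO (red) right atrial libraries, with symbols for library 1, 2 and 3 and black bars for the mean ± SD. Nppb and Gm13054 separate by group, whereas VO 2 brings Nppa at 3224 FPKM into the sham range and the receptor and enzyme genes overlap.

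Gm13054 is annotated as an antisense gene on the minus strand (chromosome 4, 148001091 to 148004014, 820 exonic bases in 3 exons). Its exons overlap exons of Nppa over 532 bases, 64.9% of their length, from 148001091 to 148001384 and from 148001775 to 148002012. A further 142 bases lie in introns of Nppa and 146 lie outside it. How strand was used in counting is not given in the sources used here, so fragments from Gm13054 and Nppa cannot be told apart over the shared bases. Gm13054 had 32.3, 35.3 and 35.5 FPKM in sham 1, 2 and 3, and 12.0, 18.6 and 15.3 in VO 1, 2 and 3. The groups did not overlap, the means were 34.4 ± 1.79 and 15.3 ± 3.26 (SD, n = 3 each), and the log2 difference was -1.18 ± 0.16 (SE), from -1.33 to -1.02 with 1 library left out. Its fragments made up 0.545% to 1.11% of those of Nppa, and this share overlapped between groups. Among the sham libraries Nppa varied 1.81-fold and Gm13054 1.10-fold.

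Nppc was barely detected. Its fragments numbered 6, 0 and 0 in sham and 1, 0 and 2 in VO, and no fold is given at counts this low. A count of 0 allows up to 3 fragments, and this covers counting error only.

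Corin is the cell-surface serine protease that cleaves pro-ANP, and Furin is a proprotein convertase that cleaves pro-BNP and activates other precursors. Corin had 91.2, 88.6 and 85.4 FPKM in sham 1, 2 and 3, and 86.1, 101.0 and 88.0 in VO 1, 2 and 3. The groups overlapped, and the log2 difference was 0.05 ± 0.11 (SE), turning to -0.02 without VO 2. Furin had 18.0, 18.5 and 20.8 FPKM in sham and 14.6, 19.0 and 15.7 in VO, with a log2 difference of -0.22 ± 0.13 (SE) and VO 2 inside the sham range. Corin was the more abundant of the 2 in every library, and its ratio to Furin was 4.11 to 5.06 in sham and 5.33 to 5.92 in VO. These ranges did not touch although each gene alone overlapped, and the ratio carries no test. Of all tested genes taken singly, 8.25% had every VO library higher.

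Npr1 encodes the guanylyl cyclase receptor for ANP and BNP, Npr2 that for C-type natriuretic peptide, and Npr3 the clearance receptor, which takes up all 3 peptides. Npr1 was at 6.80, 9.84 and 9.14 FPKM in sham 1, 2 and 3, and at 8.88, 10.2 and 9.34 in VO 1, 2 and 3. Its log2 difference of 0.16 ± 0.16 (SE) came to -0.0017 without sham 1, the lowest library. Npr2 was at 12.6, 14.7 and 16.5 in sham and at 16.6, 18.3 and 14.5 in VO, with a log2 difference of 0.17 ± 0.14 (SE). Npr3 was the most abundant receptor, with 63.4, 65.3 and 76.6 FPKM in sham and 49.7, 65.0 and 51.8 in VO. VO 2 alone brought the Npr3 groups into overlap, and the log2 difference was -0.31 ± 0.14 (SE), or -0.43 without VO 2. All 3 receptors had overlapping groups.

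Ratios of the receptors within a library were also read. Npr3 was 5.04, 4.44 and 4.64 times Npr2 in sham 1, 2 and 3, against 2.998, 3.55 and 3.56 times in VO 1, 2 and 3. Npr3 over Npr1 was 6.64 to 9.33 in sham and 5.54 to 6.35 in VO. For both ratios all VO libraries lay below all sham libraries, narrowly so for Npr3 over Npr1. Of all tested genes taken singly, 12.9% had every VO library lower. Npr2 over Npr1 ran from 1.496 to 1.86 over all 6 libraries, and the groups overlapped. Ratios of FPKM compare levels per length, and they carry no test here.

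The order of mean level over the 6 libraries was Nppa (2994 FPKM), Nppb (356), Corin (90.1), Npr3 (62.0), Gm13054 (24.8), Furin (17.8), Npr2 (15.5), Npr1 (9.04) and Nppc (0.0900). Corin was above Npr3 in every library, while Furin (14.6 to 20.8) and Npr2 (12.6 to 18.3) overlapped over the 6 libraries. In VO 1, 2 and 3 Gm13054, Furin and Npr2 all lay between 12.0 and 19.0 FPKM, in one order in VO 2 and VO 3 and in another in VO 1.

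Values within sex were set beside the pooled ones. In the libraries with Xist (2 sham, 2 VO) the log2 difference was -1.17 for Nppa, -2.15 for Nppb, -1.17 for Gm13054 and -0.29 for Npr3. Between the 2 libraries with Ddx3y (1 of each group) it was -0.66, -1.63, -1.20 and -0.34 for the same genes. The sign was the same in both sexes for these 4 genes and for Furin, at -0.22 and -0.24. Npr1 was at 0.27 and -0.07, Npr2 at 0.27 and -0.02, and Corin at 0.08 and -0.01, so the sign of these 3 differed between the sexes and the difference was not tested.

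Some markers of atrial muscle were lower in VO. The summed FPKM of 10 atrial cardiomyocyte markers was 9783 to 13539 in sham and 5195 to 9035 in VO, and 4 of the 10 (Myl7, and, named after their values were seen, Myl4, Bmp10 and Stard10) were lower at an unadjusted p under 0.05, none of them at an adjusted p under 0.05, beside 8.08% of all tested genes, a background that turns under equal library sums as given above. The other 6 had overlapping groups, and Gja5 and Nr2f2, also named so, had higher means in VO. Myl7 is the largest component of the sum. Myl7, the atrial myosin light chain, averaged 6578 FPKM in sham and 3803 in VO. Relative to Myl7, a measure added after the values were seen, Nppa stood at 64.9%, 55.3% and 55.2% in sham 1, 2 and 3 and at 39.7%, 63.8% and 53.0% in VO 1, 2 and 3, so the groups overlapped. Nppb stood at 6.76%, 9.26% and 10.8% of Myl7 in sham and at 5.33%, 2.50% and 4.54% in VO. Every VO library was lower for Nppb, as it was before division. Each of the 10 markers was also used as divisor. VO was lower without overlap with 10 of them for Nppb, 8 for Gm13054 and 2 for Nppa. Myl7 was not among those 8 or those 2, and these ratios carry no test.

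**Figure D2:**
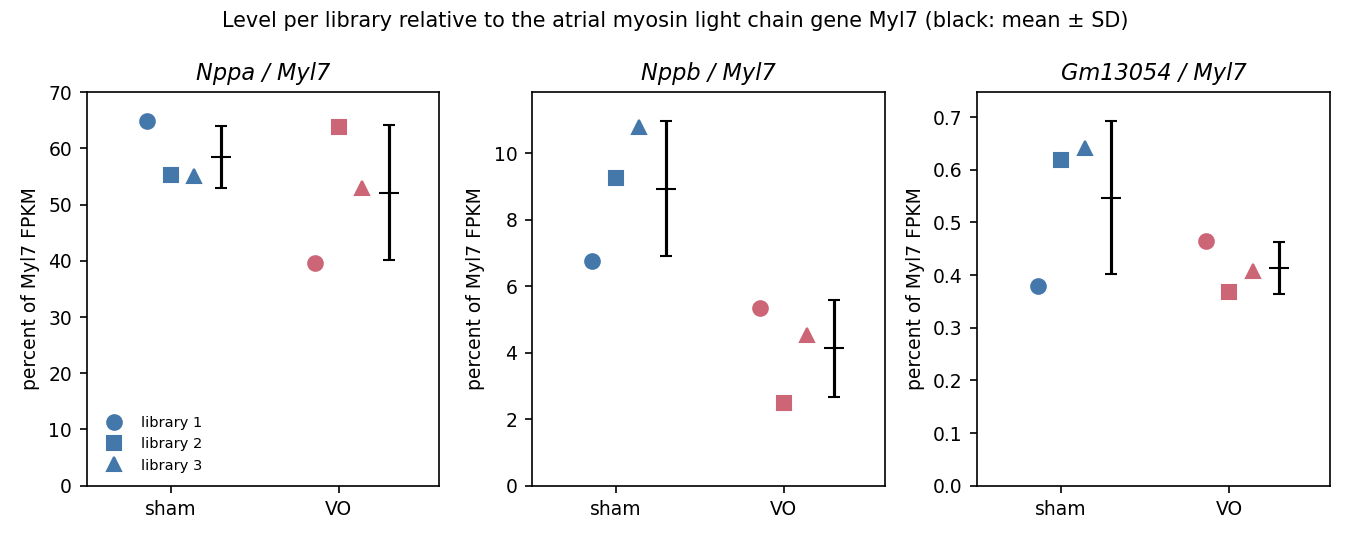
Nppa, Nppb and Gm13054 as a percentage of Myl7 FPKM (y axes from 0) in each sham (blue) and VO (red) library, with black bars for the mean ± SD of 3. Nppb at 2.50% to 5.33% in VO lies below its sham range of 6.76% to 10.8%, while Nppa and Gm13054 overlap for this divisor. Of 10 atrial markers used as divisor, 8 gave Gm13054 groups apart.

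Markers of other cell types differed between libraries too. The summed level of 7 ventricular markers was 125 to 311 FPKM in sham and 96.4 to 145 in VO, and 1 of 4 tested was lower at an unadjusted p under 0.05. The most abundant of them, Myl3, was at 180 ± 64.2 in sham and 102 ± 18.5 in VO (SD, n = 3 each). Irx4 did not exceed 0.259 FPKM in any library, Hand1 was near 0, and Myl2, named after its values were seen, was at 60.4, 2.02 and 56.0 in sham and 6.95, 1.54 and 20.6 in VO. Summed leukocyte markers, led by Lyz2, were 199 to 239 in sham and 231 to 1184 in VO, with 1184 in VO 1, and 1 of 6 tested was higher at an unadjusted p under 0.05. Summed adipocyte markers were 4.73 to 7.93 in sham and reached 438 in VO 3, where Ucp1 was at 253.6 FPKM and at 0 in the other 5 libraries, and 0 of 5 tested had an unadjusted p under 0.05. Fibroblast markers, led by Col3a1, summed to 886 to 929 in sham and 929 to 1384 in VO, endothelial markers, led by Pecam1, to 288 to 297 and 283 to 307, smooth muscle markers, led by Acta2, to 250 to 320 and 196 to 266, and epicardial markers, led by Upk3b, to 30.8 to 97.4 and 36.1 to 95.5. At an unadjusted p under 0.05, 2 of 8 fibroblast markers were higher, 2 of 10 endothelial markers were lower and 1 was higher, 1 of 8 smooth muscle markers was lower and 1 was higher, and 0 of 5 epicardial markers passed, beside 8.08% lower and 3.89% higher of all tested genes. VO 1, with the highest leukocyte and fibroblast sums, also had the lowest Nppa, Gm13054, Furin and Npr3, and the part of these cells in the differences was not tested.

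The wider pathway was read from 68 genes in 3 lists, of which 51 were tested. None passed an adjusted p under 0.05, and 4 were lower and 0 higher at an unadjusted p under 0.05, shares of 7.84% and 0% beside 8.08% and 3.89% of all tested genes. Under equal library sums these counts were 3 lower and 4 higher. Among the 51, groups lay apart for 6 genes with VO lower and for 4 with VO higher, beside 12.9% and 8.25% of all tested genes.

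Of 18 genes for activation, clearance and storage of the peptides, 8 were tested and 0 had an unadjusted p under 0.05, with a median log2 difference of -0.02 beside -0.01 for all genes. Pam, which amidates peptides and is a major protein of atrial granule membranes, was at 514 ± 18.7 FPKM in sham and 465 ± 55.3 in VO (SD, n = 3 each). Cpe, a carboxypeptidase of secretory granules, was at 227 ± 1.22 and 218 ± 7.09. Spint2, a protease inhibitor named here after its values were seen, was the 1 gene among the 8 tested with groups apart, at 7.44 ± 0.69 and 6.24 ± 0.80. Below the filter, Scg3 and Spint1, named in the same way, had every VO library higher, with Scg3 at 0.50 ± 0.12 and 0.79 ± 0.14. Spint1 was near the floor, at 0, 0.063 and 0 FPKM in sham and 0.0996, 0.0887 and 0.132 in VO, and nothing is read from it. The share of such groups among genes below the filter was not counted.

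Of 22 genes of cyclic GMP signalling, 17 were tested and 0 had an unadjusted p under 0.05, with a median of 0.13. Its most abundant members were the inhibitory G protein subunits Gnai2, at 63.6 ± 4.25 FPKM in sham and 70.7 ± 8.67 in VO, and Gnai3, at 22.1 ± 0.80 and 26.0 ± 4.07. Pde5a, the phosphodiesterase that degrades cyclic GMP, also named after its values were seen, was the 1 gene among the 17 tested with groups apart, at 1.58 ± 0.16 in sham and 2.15 ± 0.45 in VO.

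Of 28 transcription regulators linked to these genes, 26 were tested, with a median of -0.03. At an unadjusted p under 0.05, 4 were lower and 0 higher, and these were Hand2, Srf, Hopx and Nkx2-5. Hand2, a helix-loop-helix factor of the heart, was at 12.9 ± 0.88 FPKM in sham and 8.81 ± 0.58 in VO, a log2 difference of -0.54 ± 0.10 (SE) with an adjusted p of 0.284 from limma. Srf, which binds the CArG box, had a difference of -0.57 (adjusted p = 0.344, limma), Hopx, a homeodomain cofactor of Srf, -0.67 (adjusted p = 0.390, limma), and Nkx2-5, a cardiac homeobox factor, -0.46 (adjusted p = 0.404, limma). All 4 had 3 of 3 VO libraries below every sham library and none passed the adjusted threshold. Named after their values were seen, Myocd, a cofactor of Srf, also had all VO libraries lower, at 11.8 ± 0.86 and 9.81 ± 1.11 FPKM, and Tbx2, Mkl1 and Hdac9 had all VO libraries higher, with log2 differences of 0.30, 0.38 and 0.19. Srf, Hopx and Nkx2-5 had also been picked by the study on these libraries, so their values here are no independent sign of direction. By qRT-PCR the study reported each of them as lower in VO.

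**Figure D3:**
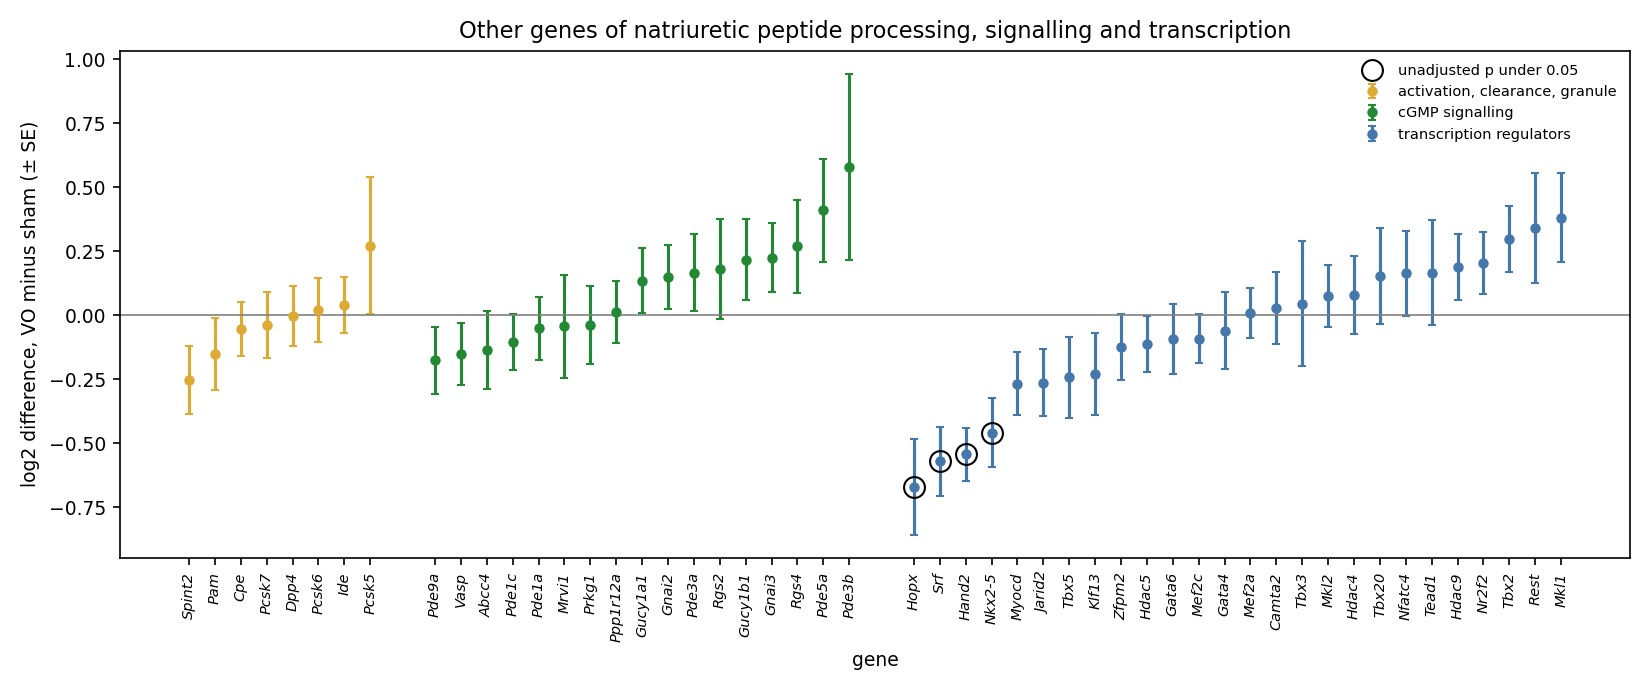
Log2 difference, VO minus sham, with its SE (y axis) for the 51 tested genes of the 3 pathway lists (x axis, sorted within each list), black rings marking an unadjusted p under 0.05. The 4 ringed genes, from -0.67 to -0.46, are transcription regulators, and the other genes scatter around 0.

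Genes around the 2 hormone genes were read by position. In the stretch from 100 kb before Nppb to 100 kb after Nppa, 11 further genes were listed and 6 passed the filter, and 0 of them had an unadjusted p under 0.05 with all libraries (1 without VO 2). Mfn2, for mitochondrial fusion, was at 160.6 ± 12.4 FPKM in sham and 142.4 ± 24.2 in VO, and Plod1, a collagen lysyl hydroxylase, at 22.0 ± 1.63 and 18.5 ± 2.12. Plod1 had groups apart, with a log2 difference of -0.25 ± 0.12 (SE) and an adjusted p of 0.423 from limma. The log2 differences were -0.01 for 2510039O18Rik, 0.13 for Clcn6, a chloride transporter whose gene lies beside Gm13054, and 0.13 for Agtrap, a partner of the angiotensin receptor. The 3 hormone-locus genes stood at -1.97, -1.002 and -1.18 between these neighbours.

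**Figure D4:**
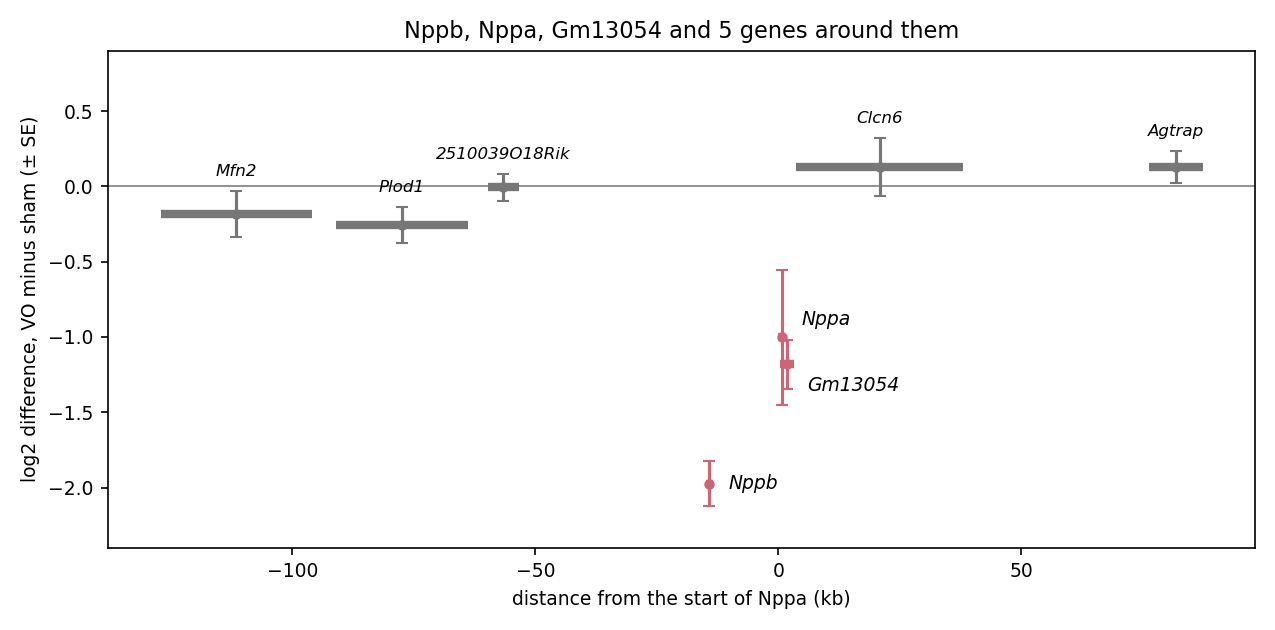
Log2 difference, VO minus sham, with its SE (y axis) for Nppb, Nppa, Gm13054 and 5 of the tested genes around them, against distance from the start of Nppa in kb (x axis, horizontal bars show the gene's extent). Nppb, Nppa and Gm13054 (red) lie at -1.97 to -1.002, and the 5 other genes (grey) between -0.25 and 0.13.

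Among tested genes, those whose log2 values followed Nppa most closely over the 6 libraries were Zmpste24 (r = 0.999), Cipc (0.998), Sirt5 (0.997), Doc2g (0.996) and Habp4 (0.996). All 5 shared with Nppa the high value of sham 1, the low value of VO 1 and overlapping groups. For Nppb they were Irf2bpl (r = 0.992), Tmem230 (0.991), Rsl1d1 (0.991), Nedd1 (0.990) and Pi4k2a (0.986), all with groups apart and VO lower. The values are small in some of these genes, since the log2 difference was -0.41 for Irf2bpl and -0.13 for Nedd1 against -1.97 for Nppb. Gm13054 had an r of 0.80 with Nppa and of 0.94 with Nppb. With 6 libraries in 2 groups and 12627 genes to choose from, such values describe shared order and carry no test.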

How the data were processed

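Per the labels, right atrial RNA was made into 6 libraries (3 sham, 3 VO) with a NEBNext Ultra kit. The authors deposited 1 table of FPKM per gene. The submitters' processing notes name HISAT2 2.0.5 and featureCounts 1.5.0-p3 on GRCm38, and the settings for strand are not given in the sources used here. Gene coordinates of 98.4% of 54039 shared genes were identical to GENCODE M21. From FPKM and gene length, 100% of values came back as whole fragments (tolerance 0.001), and total fragments ranged from 15963082 to 17237903. An incomplete last line (1) was left out.

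FPKM were scaled by median of ratios (factor 1 in every library), filtered at a mean of at least 1 (12627 genes) and fitted as log2(FPKM + 0.1) with limma 3.58.1 (trended eBayes, two-sided, R 4.3.3), with p-values adjusted by Benjamini-Hochberg over the 12627 genes. A factor of 1 means that the deposited values were already on the median-of-ratios scale. The fold changes are on the log2(FPKM + 0.1) scale, which understates changes of low genes. The study had used a count test, whereas limma was used here because the values were deposited as FPKM. At the same adjusted p threshold the count test of the study had called far more genes, both higher and lower in VO. The procedure was tested on simulated data with the same dispersion for every gene and no differences in cell content. That test does not show how many real changes could be found in these libraries. Summaries and plots were made in Python 3.11.15 with matplotlib 3.10.9.

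The 9 genes and the pathway and marker lists were chosen with earlier results of these data known. Genes named were all 9, the 5 tested genes most correlated with Nppa and with Nppb, the neighbours within 100 kb that passed the filter (1 of them is not reported here), of each pathway list the genes at an unadjusted p under 0.05 (up to 4 each way) and the 2 most abundant, and of each marker list the most abundant gene and defining markers near 0. Genes named outside this rule are marked. Samples with the same replicate number did not deviate together (r = -0.108, 0.011 and -0.029), so replicates were not treated as pairs. Alternatives changed the pseudocount, filter, scaling, variance model, test, replicate block and libraries used. Sex as a covariate was added after seeing the data.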

Additional observations from a re-analysis of the deposited data

How the results depend on the processing

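The number of genes called at an adjusted p under 0.05 in limma was 1 and was small in every alternative, each of them a limma fit. The count test of the study, which had called far more genes at this threshold, was not rerun. The number called in limma was 2 with a pseudocount of 1, 3 with a filter at a mean FPKM of 0.1 and 3 without the variance trend. It was 0 with quantile normalization, robust variance estimates, the replicate block or sex as a covariate (the last chosen after seeing the data). With 1 library left out it was 0 in each of the 6 fits (lowest 0, highest 0), where 855 to 1998 genes had an unadjusted p under 0.05. At 0 called, the count at an unadjusted p under 0.05 was 932 with the replicate block, 1148 with sex, 1345 with quantile normalization and 1504 with robust estimates, beside 1070 lower and 546 higher genes with voom on recovered fragments, where 1 gene was called. Pathway and neighbouring genes had 0 calls in every alternative. Quantile normalization moved the log2 difference of Nppb to -1.68 and of Corin to 0.25, and equal library sums moved Corin to 0.19. Equal library sums also took Npr1 to 0.29, Npr2 to 0.31, Npr3 to -0.17 and Furin to -0.09. These shifts were below the SD within groups but large beside the differences themselves. The sign of Nppa, Nppb, Gm13054, Npr2, Npr3 and Furin held in 19 of 19 alternatives, and that of Npr1 and Corin in 18. Many of these could not change a sign. The filters, the unscaled FPKM, the variance models, the replicate block and sex left each log2 difference as in the main fit. Only the pseudocounts, equal sums, quantile normalization, voom and the libraries left out could move it. The cause of the shifts in size was not tested. With 3 libraries a group, the receptor and enzyme groups overlapped, and differences of their size could not be resolved from the spread between libraries.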
